A study of Mus musculus with 4 samples.

Results

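The genes described here are the E-, A- and B-type cyclins Ccne1, Ccne2, Ccna2, Ccnb1 and Ccnb2, the cyclin-dependent kinases Cdk1 and Cdk2, and the Cdc25 phosphatases Cdc25a, Cdc25b and Cdc25c. They were chosen by name, and all 10 symbols matched an Ensembl ID among the 23552 genes of the expression table. The libraries came from mice with acute myeloid leukemia driven by the MLL-AF9 (MA9) fusion gene, on the C57BL/6 background. The study used 8-week-old female mice in general, and the age of the donors of these libraries is not given in the sources used here.

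Both groups carried the MA9 fusion and a virus encoding eGFP. Control cells had eGFP alone (libraries control replicates 3 and 4), and SUV-OE cells had eGFP together with Suv39h1, an enzyme that methylates histone H3 at lysine 9 (libraries SUV-OE replicates 2 and 3). Sorted eGFP+ leukemic cells were transplanted into sublethally irradiated recipients, and c-Kit+ cells were enriched from the bone marrow when the mice were moribund. The overexpression was therefore driven by a viral vector in serially passaged leukemic cells, and irradiated hosts keep c-Kit+ progenitors of their own, which enrichment on c-Kit alone does not remove. All 4 libraries belonged to RNA-seq batch 2, and whether each came from a separate mouse is not given in the sources used here, so the p-values measure the spread between these libraries only. The comparison asks how these cell cycle genes were expressed when Suv39h1 was overexpressed.

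In the cell cycle, cyclin E with Cdk2 drives entry into S phase, cyclin A2 works with Cdk2 in S phase and with Cdk1 later, and cyclin B with Cdk1 drives mitosis. Cdk proteins are present through most of the cycle, while the cyclins are made and destroyed in turn, so that cyclin mRNA levels in a cell population depend on how many cells are in each phase. Cdc25 phosphatases remove the inhibitory phosphates that Wee1 and Pkmyt1 place on the Cdks. Transcription of these genes is tied to the cycle through E2F factors for the S-phase genes. For the genes of G2 and mitosis it is tied through the DREAM, MYBL2 and FOXM1 complexes, which act at CHR elements. CCAAT boxes are bound by the factor NF-Y.

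RefSeq promoters, on the GRCm38.p6 (mm10) assembly, were found for 7 of the 10 genes. Ccne2, Ccna2 and Cdc25c had no entry in the promoter set used here. Each window of 300 bases, from 250 before to 50 after the transcription start, was searched on both strands for the CHR element TTTGAA, for the CCAAT box CCAAT and for the E2F sites TTTCCCGC, TTTCGCGC, TTTGCCGC and TTTGGCGC. The CHR letters occurred in 17.9% of all 32851 promoters, CCAAT in 37.4% and an E2F site in 2.26%. Among the 7 genes the counts were 2 with a CHR (Ccnb2 and Cdk1), 6 with a CCAAT box (all but Ccne1) and 3 with an E2F site (Cdk1, Cdk2 and Cdc25a). The promoters below are those of the gene with the lowest SUV-OE level relative to control (Ccne1), the gene with the highest (Cdc25b), both genes with a CHR and the phosphatase gene with an E2F site. They are read 5′ to 3′ on the strand of the gene and stop at most 30 bases into the transcript. Capitals mark the searched letters, and ATTGG is a CCAAT box on the opposite strand.

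Ccne1, chr7:38107505-38107740, minus strand: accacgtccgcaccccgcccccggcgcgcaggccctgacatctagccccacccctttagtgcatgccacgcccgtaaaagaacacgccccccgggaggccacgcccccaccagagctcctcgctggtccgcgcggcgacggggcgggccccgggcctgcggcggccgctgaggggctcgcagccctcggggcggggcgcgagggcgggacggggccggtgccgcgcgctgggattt
Ccnb2, chr9:70421525-70421804, minus strand: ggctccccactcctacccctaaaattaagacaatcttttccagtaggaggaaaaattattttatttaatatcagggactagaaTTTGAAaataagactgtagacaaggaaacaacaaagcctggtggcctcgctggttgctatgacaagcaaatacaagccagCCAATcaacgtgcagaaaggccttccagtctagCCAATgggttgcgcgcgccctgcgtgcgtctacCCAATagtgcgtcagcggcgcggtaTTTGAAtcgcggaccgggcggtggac
Cdk1, chr10:69352909-69353162, minus strand: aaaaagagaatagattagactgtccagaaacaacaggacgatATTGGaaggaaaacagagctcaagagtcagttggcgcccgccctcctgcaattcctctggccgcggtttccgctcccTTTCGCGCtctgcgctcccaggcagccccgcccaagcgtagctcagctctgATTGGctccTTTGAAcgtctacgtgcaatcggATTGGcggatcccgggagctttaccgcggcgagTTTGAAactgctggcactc
Cdc25a, chr9:109875329-109875608, plus strand: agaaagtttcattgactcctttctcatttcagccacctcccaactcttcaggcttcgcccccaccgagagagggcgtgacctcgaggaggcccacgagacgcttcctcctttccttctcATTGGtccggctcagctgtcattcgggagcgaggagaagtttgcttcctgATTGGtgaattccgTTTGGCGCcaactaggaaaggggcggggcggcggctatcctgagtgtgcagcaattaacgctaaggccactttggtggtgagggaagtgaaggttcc
Cdc25b, chr2:131186698-131186977, plus strand: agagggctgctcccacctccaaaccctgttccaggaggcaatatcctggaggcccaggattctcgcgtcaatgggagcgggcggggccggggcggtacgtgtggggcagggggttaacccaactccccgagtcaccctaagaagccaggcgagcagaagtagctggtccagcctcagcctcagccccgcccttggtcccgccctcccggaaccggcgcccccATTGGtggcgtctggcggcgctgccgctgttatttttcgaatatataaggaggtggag

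In Ccnb2 the 3 CCAAT boxes began 87, 54 and 21 bases before the start, and CHR letters stood 167 bases before and 5 bases into the transcript. In Cdk1 a CHR stood 71 bases and another 15 bases before the start, with an E2F site 131 bases before it. The Cdc25a E2F site stood 67 bases before the start, next to a CCAAT box at 81. These positions are counted from the RefSeq start, which is not always the GENCODE start. In Cdk1 the RefSeq start lies inside the GENCODE gene, and so does the CHR counted at 15 bases before it. In Ccnb2 the RefSeq start lies before the GENCODE start, and the CHR counted at 5 bases begins before the GENCODE start too. A match is a run of letters and not a measured binding site, and no binding data were used here.

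The cyclin, Cdk and Cdc25 genes were mostly lower in SUV-OE than in control c-Kit+ cells, but none was called changed by the main test. In 9 of the 10 genes the SUV-OE libraries both lay under the lower control library, and in Cdc25b the groups overlapped. A log2 fold change below 0 was likewise found for 9 of the 10 genes, or for 8 after quantile normalization, under which Cdk2 turned to 0.09. The largest difference was in Ccne1, which was at 56.8% of control, and the smallest among the lower genes was in Cdk2, at 92.7%. Since these are bulk samples, fewer cells in S, G2 or M phase and less RNA per cell cannot be told apart.

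Expression was compared on log2(FPKM + 1), where FPKM counts fragments by transcript length and library size, with the moderated test of limma over the 13736 genes whose mean FPKM was 0.5 or more. All 10 genes passed that filter. A fold change on this scale understates the change of genes with low FPKM. By limma with Benjamini-Hochberg adjustment, 0 of the 10 genes had an adjusted p under 0.05, against 1.29% of all tested genes (0.430% lower and 0.859% higher in SUV-OE), and 0 were DEGs, which also need a change of at least 1 on the log2 scale, against 1.22%. At an unadjusted p under 0.05, 3 of the 10 were lower (Ccne1, Ccnb1 and Ccnb2), against 10.4% of all tested genes. By limma-voom, run on reads recovered from the FPKM, 1 of the 10 (Ccne1) had an adjusted p under 0.05, against 6.12%, and 4 had an unadjusted p under 0.05, against 24.5%.

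Over all tested genes, both SUV-OE libraries were under the lower control library in 28.4% and above the higher one in 25.4%, and the log2 fold change was below 0 in 53.0%. Genes at the level of these cell cycle genes were more often lower. Of the 6874 tested genes with a mean FPKM between 5.53 (Cdc25b) and 77.9 (Ccnb2), the shares were 35.8% and 62.4%. The lists set beside these shares below are not confined to that range. Cks2 and Tfdp1, for example, lie above it, and Mastl, E2f5 and Fbxw7 below it. The median log2 fold change of the 10 genes was -0.36, that of all tested genes -0.02 and that of the 6874 genes -0.09. In 3 of the 9 genes without overlap (Ccne2, Cdk2 and Cdc25c) the gap between the groups was under 0.05 on the log2 scale, and after quantile normalization 7 genes were without overlap in that direction.

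**Figure D1:**
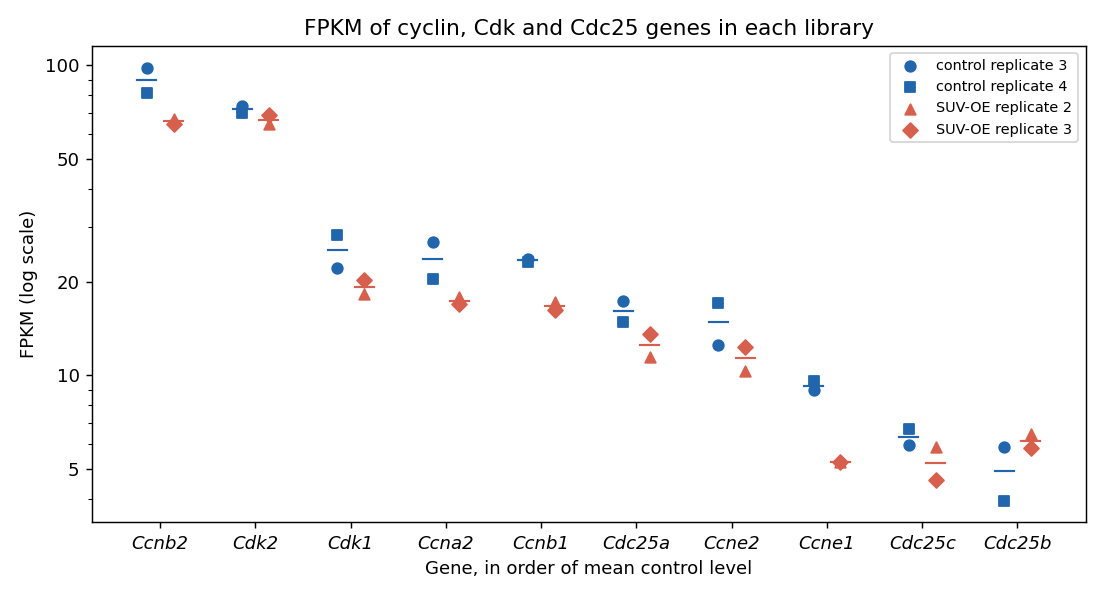
FPKM on a log axis for each of the 10 genes, ordered by mean control level, with 1 point per library (blue, control replicates 3 and 4; red, SUV-OE replicates 2 and 3) and short lines at the group means (n = 2). The red points lie below both blue points in 9 genes, by a wide gap in Ccne1 (5.27 and 5.26 against 8.94 and 9.60), and overlap with them in Cdc25b.

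Suv39h1 itself, the overexpressed gene, had an FPKM of 12.4 in both control libraries and of 75.3 and 81.2 in SUV-OE replicates 2 and 3 (log2 fold change 2.56, SE 0.11, limma adjusted p = 0.00866), higher in SUV-OE as the labels state. That adjusted p was 0.0975 to 0.186 when a library was left out. Kit, the gene used for enrichment, had 20.4 and 19.2 in control against 28.6 and 25.4 in SUV-OE (log2 fold change 0.43, limma adjusted p = 0.160). All 7 markers listed for c-Kit+ myeloid leukemic cells were above 0 in every library, and their summed FPKM was 619 to 658 in control and 600 to 669 in SUV-OE, with 3 higher (Kit, Meis1 and Ptprc) and 2 lower (Mpo and Hoxa9) in both SUV-OE libraries. The summed FPKM of 10 neutrophil granule genes was 990 to 2633 in control and 6833 to 8296 in SUV-OE, with 9 of the 10 higher in both SUV-OE libraries. The sum of 10 B-lymphoid genes was 19.1 to 28.4 in control and 44.5 to 105 in SUV-OE (9 of 10 higher in both). In control and SUV-OE, erythroid genes summed to 21.7 to 144 and 120 to 149 (6 of 11 higher in both), megakaryocyte genes to 7.40 to 12.4 and 19.2 to 21.4 (4 of 6), and T and NK genes to 0.718 to 1.07 and 1.59 to 2.32 (4 of 7, with Cd3e, Cd3g, Cd8a and Ncr1 at 0 in a library). The neutrophil, B-lymphoid, megakaryocyte and T and NK sums were thus higher in both SUV-OE libraries, where the cyclin genes were lower. Not every gene of these lists was higher. Cebpe of the neutrophil list was lower in both SUV-OE libraries, with 237 and 242 in control against 177 and 193 in SUV-OE. Cd79b of the B-lymphoid list overlapped between the groups, with 17.4 and 25.0 in control against 17.2 and 23.4 in SUV-OE. Cd3e, Cd3d and Cd3g of the T and NK list and Gp1ba and Gp9 of the megakaryocyte list overlapped as well. Each of these overlapping genes had an SUV-OE mean below the control mean. The erythroid sums overlapped between the groups, with control replicate 4 above SUV-OE replicate 3. The part of these markers in the cyclin result was not tested. Recovered reads summed over genes came to 19907657 to 23355527 per library. The library sizes behind the FPKM (the authors' divisors) were smaller, at 16873770 to 19453058. At those sizes the FPKM of 3 reads on 1 kb was 0.154 to 0.178. The 10 genes had from 248 reads (Cdc25b) to 10518 reads (Cdk2) in a library, so that depth did not limit their detection.

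Ccne1 encodes cyclin E1, which activates Cdk2 at the start of S phase (ENSMUSG00000002068, chromosome 7, 38097984 to 38107534, minus strand; all gene positions are from GENCODE M21 on mm10). It had an FPKM of 8.94 and 9.60 in control replicates 3 and 4 and of 5.27 and 5.26 in SUV-OE replicates 2 and 3. The groups were far apart compared with the spread inside them, and the SUV-OE libraries were almost equal. Behind these values were 463 and 431 recovered reads in the controls and 249 in each SUV-OE library. The log2 fold change was -0.71 (SE 0.11, 95% interval -1.0 to -0.42, limma adjusted p = 0.0692), which 2.83% of tested genes exceeded in the negative direction. It was -0.81 by limma-voom (adjusted p = 0.0388), and over the other 7 alternatives and the 4 fits without a library no adjusted p was under 0.05, so that Ccne1 was called in that 1 alternative, which differs from the main test in its unit, its filter and its weights.

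Ccne2 encodes cyclin E2, the close relative of cyclin E1 (ENSMUSG00000028212, chromosome 4, 11191351 to 11204779, plus strand). Its FPKM was 12.5 and 17.2 in control against 10.3 and 12.4 in SUV-OE. The highest SUV-OE library all but met the lowest control library. For SUV-OE minus control the log2 fold change was -0.35 (SE 0.19, 95% interval -0.84 to 0.15, limma adjusted p = 0.371), and it was -0.56 without control replicate 3, -0.13 without control replicate 4 and -0.23 without SUV-OE replicate 2. Over 5622 bases Ccne2 overlaps Ints8 on the opposite strand, and the library kit does not mark strand, so reads of the shared exons cannot be told apart. Ints8 had an FPKM between 6.30 and 7.13 in all 4 libraries, with the groups overlapping. Because Ccne1 was further from control than Ccne2, the ratio of Ccne2 to Ccne1 was 1.40 and 1.79 in control against 1.96 and 2.35 in SUV-OE, without overlap. The E cyclins together summed to 21.4 and 26.8 in control and to 15.6 and 17.6 in SUV-OE, which was 68.9% of control.

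Ccna2 encodes cyclin A2, the A-type cyclin of dividing somatic cells (ENSMUSG00000027715, chromosome 3, 36564865 to 36572150, minus strand). It had an FPKM of 26.9 and 20.5 in control against 17.9 and 16.9 in SUV-OE. Control replicate 3 was well above control replicate 4, and both SUV-OE libraries were below it. This gave a log2 fold change of -0.41 (SE 0.16, 95% interval -0.83 to 0.00, limma adjusted p = 0.245), which was -0.23 without control replicate 3 and -0.60 without control replicate 4. Ccna2 overlaps Exosc9, a gene of the RNA exosome, by 863 bases on the opposite strand. Exosc9 had 8.12 and 8.08 in control against 4.94 and 4.89 in SUV-OE, so it was lower in both SUV-OE libraries as well, and reads of the shared exons cannot be told apart.

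Ccnb1 encodes cyclin B1, the main mitotic partner of Cdk1 (ENSMUSG00000041431, chromosome 13, 100778650 to 100786570, minus strand). Its FPKM was 23.8 and 23.2 in control against 17.3 and 16.2 in SUV-OE. Replicates of each group were close together, and the groups were clearly apart. The log2 fold change was -0.46 (SE 0.11, 95% interval -0.74 to -0.18, limma adjusted p = 0.125), the second most negative of the 10. Processed copies of the gene exist, such as Ccnb1-ps (99.2% identical over 1287 bases) and Gm12856 (98.1%). Their FPKM stayed under 1 in all 4 libraries, at 0.219 to 0.691 for Ccnb1-ps and at 0.477 to 0.963 for Gm12856, and how shared reads were assigned is not given in the sources used here.

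Ccnb2 encodes cyclin B2 (ENSMUSG00000032218, chromosome 9, 70407692 to 70421547, minus strand) and had the highest control level of the 10 genes, with an FPKM of 98.4 and 81.3. In SUV-OE it had 67.0 and 64.9. The SUV-OE libraries agreed closely and both were below control replicate 4, the lower control library. Its log2 fold change was -0.43 (SE 0.15, 95% interval -0.82 to -0.05, limma adjusted p = 0.206), and after quantile normalization it was -0.24. The B cyclins kept a similar proportion to each other, since the ratio of Ccnb2 to Ccnb1 was 4.13 and 3.51 in control against 3.87 and 4.0 in SUV-OE. Their sum was 122 and 104 in control against 84.3 and 81.2 in SUV-OE, which was 73.0% of control. The sum of B over the sum of E cyclins overlapped between the groups, at 5.71 and 3.90 in control against 5.40 and 4.61 in SUV-OE.

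Cdk1, the kinase of mitosis (ENSMUSG00000019942, chromosome 10, 69335146 to 69352938, minus strand), had an FPKM of 22.2 and 28.5 in control against 18.3 and 20.3 in SUV-OE. Control replicate 4 was highest, the reverse of the order seen in Ccna2 and Ccnb2, where control replicate 3 was highest. This gave a log2 fold change of -0.37 (SE 0.16, 95% interval -0.78 to 0.05, limma adjusted p = 0.281), which was -0.54 without control replicate 3 and -0.19 without control replicate 4.

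Cdk2, the partner of cyclins E and A (ENSMUSG00000025358, chromosome 10, 128697939 to 128705031, minus strand), had an FPKM of 74.1 and 70.3 in control against 64.7 and 69.1 in SUV-OE. The nearest libraries of the groups were almost level. Its log2 fold change was -0.11 (SE 0.12, 95% interval -0.43 to 0.21, limma adjusted p = 0.654), and the interval includes 0. It was -0.07 without control replicate 3 and -0.06 without SUV-OE replicate 2. After quantile normalization it was 0.09 (limma adjusted p = 0.743). Cdk2 overlaps Pmel on the opposite strand by 837 bases, and Pmel had an FPKM of 0.845 to 1.0. The ratio of Cdk2 to Cdk1 was 3.33 and 2.47 in control against 3.53 and 3.40 in SUV-OE.

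Relative to Cdk2 mRNA, but not to Cdk1 mRNA, cyclin mRNA was lower in both SUV-OE libraries. The 5 cyclins summed to an FPKM of 171 and 152 in control against 118 and 116 in SUV-OE, or 72.4% of control, whereas Cdk1 plus Cdk2 came to 88.4%. The ratio of these sums was 1.77 and 1.54 in control against 1.42 and 1.29 in SUV-OE. Most of that kinase sum was Cdk2, relative to which the cyclins were at 2.30 and 2.16 in control against 1.82 and 1.67 in SUV-OE. Relative to Cdk1 alone the groups overlapped, at 7.67 and 5.33 in control against 6.43 and 5.69 in SUV-OE. A two-sided exact permutation test of 2 against 2 libraries cannot go below p = 0.333, so none was run on these ratios. Ccnb2 made up 53.6% to 57.7% of the cyclin sum in control and 56.1% to 56.9% in SUV-OE.

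Cdc25a, the phosphatase that acts on Cdk2 at the start of S phase (ENSMUSG00000032477, chromosome 9, 109875579 to 109893895, plus strand), had an FPKM of 17.4 and 14.8 in control against 11.4 and 13.6 in SUV-OE. SUV-OE replicate 3 was just below control replicate 4. The log2 fold change was -0.34 (SE 0.15, 95% interval -0.72 to 0.04, limma adjusted p = 0.279), and it was -0.22 without SUV-OE replicate 2.

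Cdc25b, which acts early in mitotic entry (ENSMUSG00000027330, chromosome 2, 131186949 to 131198497, plus strand), stood apart from the rest. Its FPKM was 5.89 and 3.94 in control against 6.48 and 5.82 in SUV-OE. SUV-OE replicate 3 lay between the control libraries. The log2 fold change was 0.29 (SE 0.20, 95% interval -0.22 to 0.80, limma adjusted p = 0.454), and it was 0.05 without control replicate 4, the low control library, and 0.53 without control replicate 3. Cdc25b overlaps Spef1 on the opposite strand by 334 bases.

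Cdc25c, a phosphatase of Cdk1 (ENSMUSG00000044201), had an FPKM of 5.96 and 6.72 in control against 5.86 and 4.58 in SUV-OE. SUV-OE replicate 2 was barely under control replicate 3. Its log2 fold change was -0.24 (SE 0.15, 95% interval -0.65 to 0.16, limma adjusted p = 0.432), and it was -0.09 without SUV-OE replicate 3 and -0.39 without SUV-OE replicate 2. It overlaps Gm3550 on the opposite strand by 1656 bases, a gene with an FPKM under 1 in all 4 libraries.

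Among the phosphatases, Cdc25b made up more of the mRNA in SUV-OE. The ratio of Cdc25a to Cdc25b was 2.96 and 3.76 in control against 1.76 and 2.34 in SUV-OE, without overlap. Cdc25b was 20.1% and 15.5% of the Cdc25 sum in control and 27.3% and 24.2% in SUV-OE. No test was run on these ratios.

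**Figure D2:**
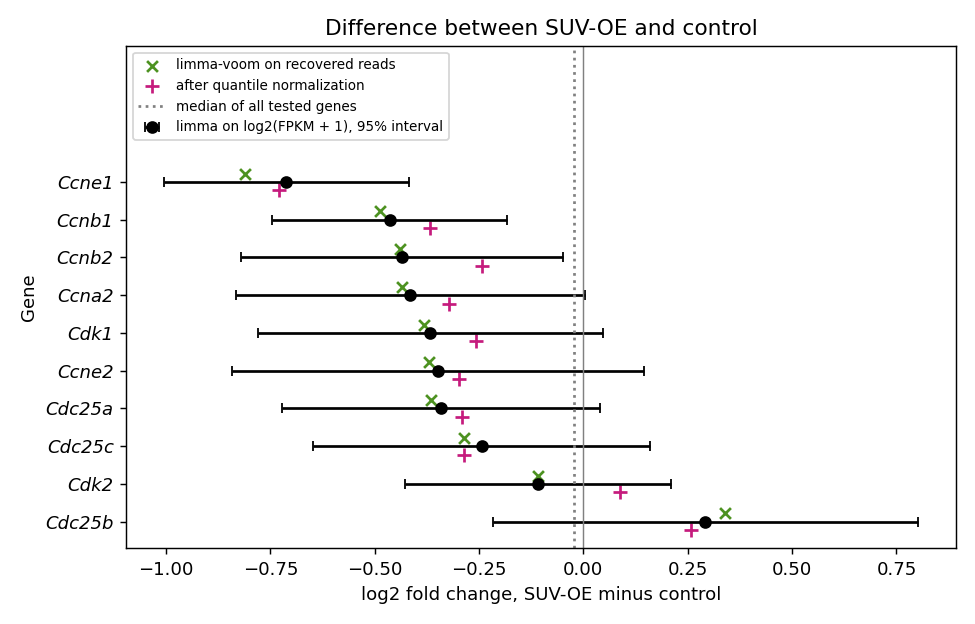
log2 fold change of each gene, SUV-OE minus control, with the 95% interval of the limma fit on log2(FPKM + 1) (black), the limma-voom value on recovered reads (green) and the value after quantile normalization (magenta). The intervals of Ccne1, Ccnb1 and Ccnb2 lie below 0, that of Cdc25b is centred at 0.29, and the quantile value of Cdk2 is 0.09.

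By mean FPKM in control, which is a level per length, the order from high to low was Ccnb2 (89.9), Cdk2 (72.2), Cdk1 (25.4), Ccna2 (23.7), Ccnb1 (23.5), Cdc25a (16.1), Ccne2 (14.8), Ccne1 (9.27), Cdc25c (6.34) and Cdc25b (4.92). Cdk1, Ccna2 and Ccnb1 overlapped in their control libraries, as did Cdc25a and Ccne2, and those neighbours did not differ beyond their spread. Ccnb2 was above Cdk2 in both control libraries and in SUV-OE replicate 2, and below it in SUV-OE replicate 3, with SUV-OE means of 65.9 for Ccnb2 and 66.9 for Cdk2. Cdc25b was the lowest in control and took the eighth place in SUV-OE, above Ccne1 and Cdc25c.

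The tested genes whose pattern over the 4 libraries was closest to the median pattern of the 10 genes, by Euclidean distance on centred log2(FPKM + 1), were Gm5879, Rab7b, Eif4g2, Tsr1 and Stk4, at distances of 0.0351 to 0.0402. Their log2 fold changes lay between -0.34 and -0.32. Ccnb1 was the closest of the 10 genes to their own median pattern, at a distance of 0.147, and Cdc25b the farthest, at 0.715.

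Most proliferation markers were lower in SUV-OE as well, and none was called changed. Of 11 tested markers, 10 (90.9%) had a log2 fold change below 0 and 1 above, without overlap of the groups in any of them. Among genes at the level of the cyclin genes 62.4% were below 0 and 35.8% without overlap on that side. Several of the markers lie above that level, however. Pcna, Mcm3, Mcm5 and Mcm6 had an FPKM above 77.9 in every library, and Mcm7 in both group means. By limma 0 markers had an adjusted p under 0.05, and 5 (45.5%) were lower at an unadjusted p under 0.05, against 10.4% of all tested genes. Their median log2 fold change was -0.42. Tk1, the thymidine kinase of S phase, had 21.9 and 22.2 in control against 12.8 and 12.1 in SUV-OE (log2 fold change -0.78, limma adjusted p = 0.0576). Rrm2, a subunit of ribonucleotide reductase, had a log2 fold change of -0.71 (limma adjusted p = 0.112), and Mcm7, a subunit of the replicative helicase, one of -0.63 (limma adjusted p = 0.139). The exception was Mki67, which encodes the Ki-67 antigen, with 38.4 and 43.7 in control against 52.7 and 46.0 in SUV-OE.

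The geometric mean of Mcm2 to Mcm7, the 6 helicase subunits loaded before S phase, was 127 and 102 in control against 80.2 and 90.6 in SUV-OE, or 74.5% of control. Relative to it, Ccne1 was still lower in both SUV-OE libraries (75.4% of the control ratio), Cdk2 was higher (124%) and Cdc25b was higher (171%). The other 7 genes overlapped between the groups, with SUV-OE ratios of 95.3% (Ccnb1) to 110% (Cdc25c) of control. The result depends on the marker used. Relative to Mki67, which was itself higher in both SUV-OE libraries, every gene but Cdc25b was lower in both, Cdk2 included. Those ratios were at 47.4% (Ccne1) to 77.2% (Cdk2) of control, and that of Cdc25b overlapped, at 102%.

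**Figure D3:**
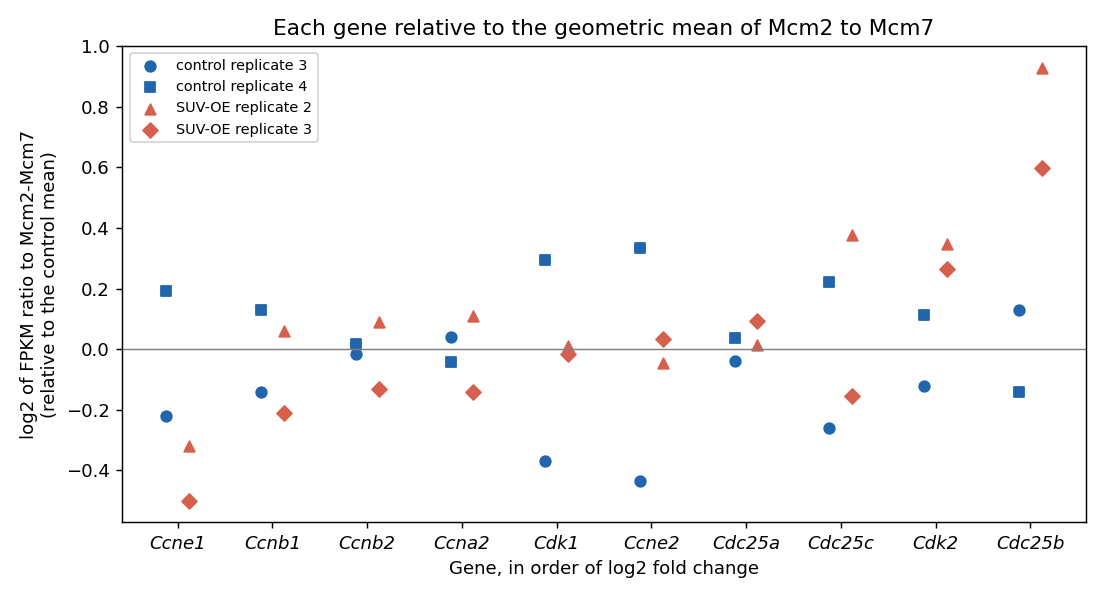
log2 of each gene's FPKM over the geometric mean FPKM of Mcm2 to Mcm7 in the same library, relative to the mean control ratio (0 on the vertical axis), with 1 point per library. The groups are separate in Ccne1 (SUV-OE below), Cdk2 and Cdc25b (SUV-OE above), and overlap in the other 7 genes.

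The kinases and subunits that set Cdk activity were mostly lower too. Of 15 tested, 14 (93.3%, against 62.4% of genes at the level of the cyclin genes) had a log2 fold change below 0, in 7 (46.7%, against 35.8%) the SUV-OE libraries both lay under the controls and in none above them, with a median of -0.28 and 0 with a limma adjusted p under 0.05 (3 of 15 were lower at an unadjusted p under 0.05, against 10.4% of all tested genes). Wee1, the kinase that inhibits Cdk1, had 48.7 and 33.7 in control against 23.1 and 24.1 in SUV-OE (log2 fold change -0.76, limma adjusted p = 0.148). Mnat1, the assembly factor of the Cdk-activating kinase, had 7.92 and 8.82 in control against 4.44 and 5.24 in SUV-OE (log2 fold change -0.68, limma adjusted p = 0.0973). Aurka, a mitotic kinase, had a log2 fold change of -0.52 (limma adjusted p = 0.139). An inhibitor (Wee1) and an activator (Mnat1) of the Cdks were thus both among the lowest values.

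Of 23 genes for the destruction of cyclins, such as subunits of the anaphase-promoting complex and of SCF ligases, 18 (78.3%, beside 53.0% of all tested genes and 62.4% of genes at the level of the cyclin genes) had a log2 fold change below 0 and 5 above, in 8 (34.8%) the SUV-OE libraries both lay under the controls, and the median was -0.19. The share without overlap was close to the 28.4% of all tested genes and the 35.8% at that level. None had a limma adjusted p under 0.05, and 1 (4.35%) was lower at an unadjusted p under 0.05, beside 10.4% of all tested genes. The log2 fold changes furthest from 0 were those of Anapc5 (-0.54, limma adjusted p = 0.137), Cdc20 (-0.48, limma adjusted p = 0.419) and Anapc10 (-0.42, limma adjusted p = 0.370), and in Cdc20 and Anapc10 the groups overlapped.

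Of 22 transcription factors of the S-phase and mitotic genes, 14 (63.6%) had a log2 fold change below 0 and 8 above, with a median of -0.14, 10 without overlap on the lower side and 3 on the higher side. The share below 0 was close to the 62.4% of genes at the level of the cyclin genes, and the 45.5% without overlap on the lower side stands beside 35.8% there. By limma 0 had an adjusted p under 0.05, while 2 (9.09%, against 10.4% of all tested genes) were lower and 1 higher at an unadjusted p under 0.05. Mybl2, the B-Myb factor of mitotic genes, had 31.1 and 19.8 in control against 16.0 and 17.3 in SUV-OE (log2 fold change -0.55, limma adjusted p = 0.269). E2f1 had a log2 fold change of -0.37 (limma adjusted p = 0.349). The subunits of NF-Y, the factor that binds CCAAT boxes, did not share a direction. Nfyc had a log2 fold change of -0.43 (limma adjusted p = 0.164), while Nfya had 17.6 and 17.3 in control against 21.0 and 23.4 in SUV-OE (log2 fold change 0.33, limma adjusted p = 0.213). Nfyb overlapped between the groups, with 8.80 and 11.1 in each (limma adjusted p = 0.999).

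The Cip/Kip inhibitors, which bind cyclin E, A and B complexes, did not share a direction. Cdkn1b, encoding p27, had 12.7 and 13.8 in control against 17.9 and 20.5 in SUV-OE (log2 fold change 0.50, limma adjusted p = 0.139). Cdkn1c, encoding p57, had a log2 fold change of -0.32 (limma adjusted p = 0.306), and Cdkn1a, encoding p21, had one of -0.14 with overlapping groups (limma adjusted p = 0.830). None of the 3 had an adjusted p under 0.05 by limma, and Cdkn1b had an unadjusted p under 0.05.

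Among the G1 and meiotic relatives, Ccnd2, which encodes cyclin D2, a G1 partner of Cdk4 and Cdk6, rose. It had an FPKM of 0.792 and 1.02 in control against 4.62 and 4.45 in SUV-OE (log2 fold change 1.54, SE 0.14, limma adjusted p = 0.0284), and it was the single gene with an adjusted p under 0.05 among the pathway genes and proliferation markers compared here. Like every other call of the main test, it was lost when any 1 of the 4 libraries was left out and when no filter on low values was used. Ccnd1 had 0.677 and 0.503 in control against 1.78 and 1.52 in SUV-OE (log2 fold change 0.74, limma adjusted p = 0.116), and Cdk6 had 99.4 and 92.8 in control against 154 and 116 in SUV-OE (log2 fold change 0.47, limma adjusted p = 0.244). Of the 7 relatives listed, 6 were in the table and 5 were tested, of which 2 had a log2 fold change below 0 and 3 above. Neither meiotic gene was tested, since Ccna1 was not in the table and Ccnb3 had 0 to 2 reads in a library. The D-type cyclins Ccnd1 and Ccnd2 therefore lay opposite to the E, A and B cyclins, from a low level in control, and Ccnd3 overlapped between the groups.

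**Figure D4:**
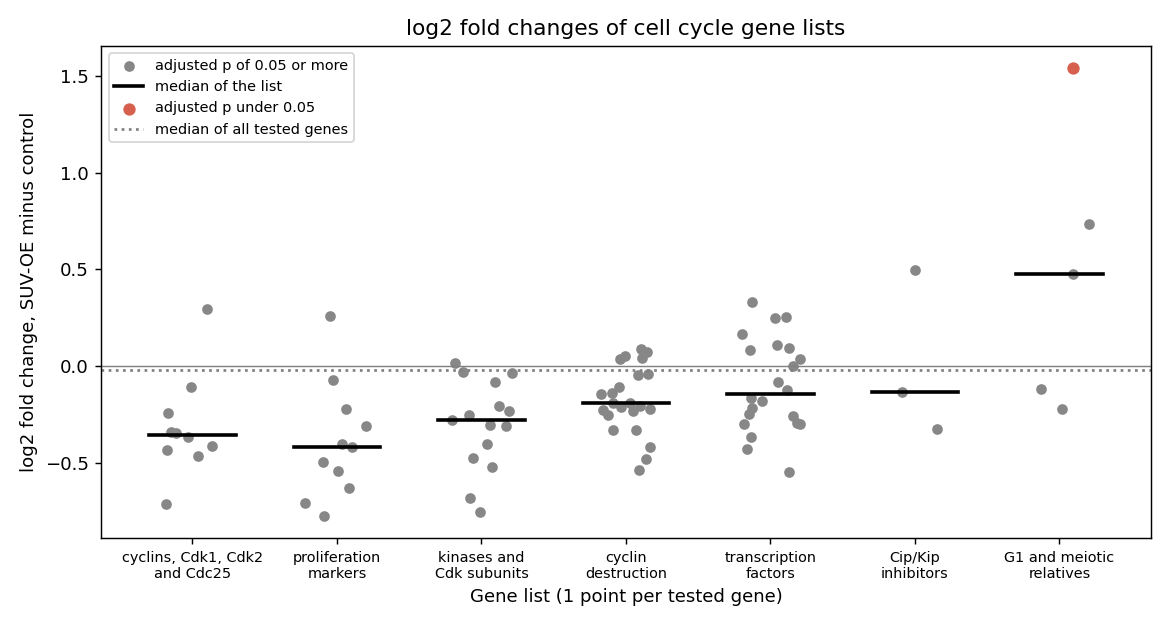
log2 fold change (SUV-OE minus control) of each tested gene in 7 cell cycle lists, with 1 point per gene, black lines at list medians and a dotted line at the median of all tested genes (-0.02). The medians run from -0.42 for proliferation markers and -0.36 for the 10 cyclin, Cdk and Cdc25 genes to 0.47 for the G1 and meiotic relatives. Of these relatives only G1 genes were tested, and Ccnd2 is the red point with an adjusted p under 0.05.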

How the data were processed

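RNA-seq profiled c-Kit+ cells of 2 control and 2 SUV-OE libraries. Total RNA was extracted with TRIzol, TruSeq RNA v2 libraries were sequenced as paired ends, and reads were aligned to mm10 with TopHat2. The submitters' processing notes name CASAVA 1.8 and TopHat2. The deposited unit was FPKM, which the authors gave for each gene in each library, and they named Cufflinks as the source. The annotation release and the other versions are not given in the sources used here.

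log2(FPKM + 1) was compared with limma 3.58.1 in R 4.3.3, with the group as the only term and an intensity trend, for genes whose mean FPKM was 0.5 or more. p-values were adjusted by Benjamini-Hochberg over all 13736 genes, and intervals are 95% intervals of the moderated fit. The authors called DEGs with DESeq2, and limma was the main test here because FPKM was the unit deposited.

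For 78.5% of genes all 4 values were whole numbers of reads to within 0.01 reads when scaled by the exon length in GENCODE M21. This held for 6 of the 10 genes, and for Ccnb2, Cdk1, Cdk2 and Cdc25c at another fitted length. limma-voom used these reads, for genes with a mean of at least 10, with the authors' divisors as library sizes. Depth and floors cover counting error only.

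Named genes were the 10 genes, Suv39h1 and Kit, of each pathway list the genes with an adjusted p under 0.05 and the 3 with the largest absolute log2 fold change, and the 5 genes closest in pattern. Mki67, Ccnd3, Nfya, Nfyb, the cell type markers and the overlapping or near-identical genes were named after their values were seen. Near copies were searched with blastn 2.17.0 (at least 95% identity over 200 bases). Another B-lymphoid marker is not reported here. The genes and lists were chosen with earlier results of these data known. The fit and the read recovery were tested on simulated data. Alternatives were a pseudocount of 0.1, no filter, a mean FPKM of at least 1, quantile and median-of-ratios scaling, no trend, a robust trend, limma-voom and leaving out each library. Figures were drawn with matplotlib 3.10.9.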

Additional observations from a re-analysis of the deposited data

How the results depend on the processing

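Of 80 log2 fold changes of the 10 genes under the 8 alternatives that keep all libraries, 79 kept their direction. Cdk2 after quantile normalization reversed, to 0.0866. One, Ccne1 by limma-voom, had an adjusted p under 0.05 (0.0388, against 0.0692 in the main test, and 0.0388 to 0.137 over these alternatives), so that 1 of the 10 genes was called there. The median log2 fold change of the 10 genes was -0.29 after quantile normalization and -0.42 to -0.31 when a library was left out. The count of genes whose SUV-OE libraries both lay under the controls, under alternatives chosen after seeing the data, was 7 after quantile normalization (Ccne2, Cdk2 and Cdc25b overlapped) and 9 after median-of-ratios scaling. When any of the 4 libraries was left out, all 40 values kept their direction but not their size, and 0 of the 10 genes had an adjusted p under 0.05, with 1 to 5 at an unadjusted p under 0.05. Ccne1 (-0.76 to -0.67), Ccnb1 (-0.51 to -0.42) and Ccnb2 (-0.57 to -0.30) stayed within 1.5 times their main value, while Ccne2 (-0.56 to -0.13), Ccna2 (-0.60 to -0.23), Cdk1 (-0.54 to -0.19), Cdk2 (-0.15 to -0.06), Cdc25a (-0.46 to -0.22), Cdc25b (0.05 to 0.53) and Cdc25c (-0.39 to -0.09) did not. In those fits the lone library is assumed to vary like the other group.

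Over all genes, 168 DEGs and 177 genes with an adjusted p under 0.05 were called in the main test. The latter were 116 with a pseudocount of 0.1. By limma-voom the counts were 667 DEGs and 877 genes. Without a filter on low values both counts were 0, with 4177 genes at an unadjusted p under 0.05 by limma. Both were also 0 to 0 when a library was left out, with 3151, 3877, 1166 and 1260 genes at an unadjusted p under 0.05 by limma without control replicate 3, control replicate 4, SUV-OE replicate 2 and SUV-OE replicate 3. Suv39h1 then had an adjusted p of 0.0975 to 0.186 by limma, and of 0.109 without a filter. The cause of these differences was not tested.

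No paired analysis was possible because 3 is the single replicate number that both groups have. With 2 libraries per group, intervals are wide, and a log2 difference of the size seen in most of these genes was not separated from 0. Ccnb1, Ccnb2 and Ccna2 were each nearer to 0 after quantile normalization (-0.37, -0.24 and -0.32).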
